A study of Labrus bergylta with 25 samples.

Results

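The comparison described here set isolated ballan wrasse (Labrus bergylta) intestines that held a digested nutrient against intestines that held none, in 25 RNA-seq libraries of the anterior bulbus, the widened first segment of the gut. The nutrient side had 12 libraries, 6 from intestines given a hydrolyzed protein bolus (casein predigested with trypsin) and 6 from intestines given a hydrolyzed lipid bolus (cod liver oil predigested with a lipase). The other side had 13 libraries, 7 from intestines given an indigestible cellulose suspension and 6 from empty intestines. The members were chosen by the treatment in the labels, and they are all 25 libraries of the series. The protein and lipid groups were given equal weight, as were the cellulose and empty groups.

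All fish were farmed juveniles labelled female, fasted before the experiment, and each intestine was taken out whole, flushed, and kept in oxygenated Ringer's solution for 1 h after filling. One library was made from each RNA sample, and no label gives a litter, day or batch. The carriers differed with the treatment. The protein bolus also held ammonium bicarbonate, a protease and phosphatase inhibitor and heat-inactivated trypsin, the lipid bolus held phosphate-buffered saline, Tween 20 and heat-inactivated lipase, and cellulose was given in water with a blue dye. A nutrient and its carrier therefore cannot be told apart in this design. Cellulose fills the gut without feeding it, while the empty gut is neither filled nor fed, so the nutrient side differed from the pooled other side also in that all of its intestines, but only the cellulose ones of the other side, held a bolus.

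In vertebrates, enteroendocrine cells of the gut lining sense peptides, amino acids and fatty acids in the lumen and answer with peptide hormones such as cholecystokinin, which slow the emptying of the upper gut. Stretch of the wall is sensed separately, by mechanosensitive neurons and other cells of the wall, and sets off contraction and propulsion. The ballan wrasse has no stomach, so the anterior bulbus receives the meal directly. The libraries were made from pieces of the whole wall, and in such tissue a gene read less because its cells are fewer cannot be told apart from one with less RNA per cell.

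The values were gene read counts that the study's authors had scaled by library size factors (normalised read counts). Of 20208 genes listed, 19033 had a value above 10 in at least 5 libraries and were tested. Read totals recovered from the values of 23 libraries were between 10160088 and 31586869. The nutrient libraries averaged 15690000 reads (n = 11) and the others 14250000 (n = 12; two-sided permutation test, p = 0.5274, 0.6026 adjusted over 3 library measures). The number of genes with a value of 0 was between 89 and 355 in the nutrient libraries (mean 182.2, n = 12) and between 91 and 1003 in the others (mean 324.8, n = 13; permutation p = 0.144, adjusted 0.4321), and it was highest in empty libraries 30 and 19 and cellulose library 27. The 100 genes with the most reads took 29.6% of reads with a nutrient and 29.1% without (permutation p = 0.6026). The part that these library differences had in the results below was not tested beyond the fits named with them. The gene identifiers are those of a genome annotation that neither the deposited table nor the reference table pairs with gene names (0 matched), so gene functions, neuropeptide, muscle and cell type markers could not be read, and only 2 identifiers that rose and 2 that fell are named, those with the smallest p in each direction.

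In the pooled contrast of nutrient with no nutrient, few genes passed an adjustment for the number of genes tested. At an unadjusted p under 0.01 (limma on log2 of the value plus 1), 686 genes differed between nutrient and no nutrient, 3.6% of those tested, with 341 higher (1.79%) and 345 lower (1.81%) with a nutrient. After Benjamini-Hochberg adjustment over all genes in limma, 4 genes passed an adjusted p of 0.05 (0.021%), all 4 higher with a nutrient, while 2265 genes had an unadjusted p under 0.05. On the 23 libraries with recovered reads, edgeR's quasi-likelihood test passed 1 gene and DESeq2 passed 45 at the same adjusted threshold, 26 of them higher with a nutrient. In limma, no gene passed that threshold when empty libraries 30 and 19 and cellulose library 27 were left out or when the number of genes at 0 entered as a covariate.

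The gene with the smallest p was LABE_00005599-RA. Its normalised count had a lowest, median and highest value of 42816, 66039 and 99738 in protein intestines, 51951, 64678 and 86064 in lipid intestines, 23315, 40472 and 47306 in cellulose intestines, and 24548, 34616 and 44862 in empty intestines. The nutrient and the other libraries hardly overlapped, since 11 of 12 nutrient libraries lay above every library without a nutrient. The log2 difference, nutrient minus none, was 0.95 ± 0.15 (SE), with an adjusted p of 0.027 (limma, Benjamini-Hochberg). Protein and lipid intestines were each higher than the no-nutrient mean by nearly the same amount, 0.95 and 0.96 on the log2 scale. The protein minus lipid difference was -0.01, with a 95% interval of -0.46 to 0.44, and the cellulose minus empty difference was 0.08, with an interval of -0.35 to 0.51.

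LABE_00019722-RA was the 1 gene of 19033 (0.00525%) whose nutrient and no-nutrient libraries did not overlap at all. Its lowest, median and highest normalised counts were 404, 432 and 591 in protein intestines, 369, 452 and 624.7 in lipid intestines, 279.6, 316 and 360.4 in cellulose intestines, and 169, 316 and 355 in empty intestines. All 12 nutrient libraries stood above all 13 others, and the cellulose and empty medians were alike. The log2 difference was 0.59 ± 0.11 (SE; limma, Benjamini-Hochberg adjusted p = 0.0485). The protein minus lipid difference was 0.01 on the log2 scale, with a 95% interval of -0.31 to 0.32.

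Both calls depended on the libraries in the fit. In limma fits that left out 1 library at a time, LABE_00005599-RA passed an adjusted p of 0.05 in 13 of 25 (Benjamini-Hochberg adjusted p between 0.00781 and 0.0831) and LABE_00019722-RA in 4 of 25 (adjusted p between 0.0358 and 0.124). Their log2 differences in these fits were between 0.89 and 1.01 and between 0.51 and 0.62. Under the other processing settings they were between 0.82 and 0.96 and between 0.46 and 0.60. LABE_00005599-RA lost its call without protein library 10, 11 or 33, lipid library 9, 14, 18 or 21, cellulose library 25, 27 or 31, or empty library 12 or 26, and LABE_00019722-RA kept its call only without protein library 32, cellulose library 13 or empty library 15 or 19. The other 2 genes that passed were higher with a nutrient by 0.63 ± 0.11 and 0.73 ± 0.13 on the log2 scale (SE; limma, Benjamini-Hochberg adjusted p = 0.0485 for each), and each passed in 4 of the 25 fits.

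With all 25 libraries in limma, no gene was lower with a nutrient at a Benjamini-Hochberg adjusted p under 0.05. Leaving out protein library 32, cellulose library 13 or empty library 24 gave 1 such gene each. The identifier with the smallest p among the lower genes, LABE_00059834-RA, is read at a low level, with lowest, median and highest normalised counts of 16.6, 18.8 and 24.9 in protein intestines, 14.3, 21.5 and 26.2 in lipid intestines, 23.2, 36.2 and 41.6 in cellulose intestines, and 23.3, 44.4 and 81.2 in empty intestines. The ranges overlapped narrowly, with 9 of 12 nutrient libraries below every library without a nutrient. The log2 difference was -0.90 ± 0.18 (SE) at an unadjusted p of 3.8e-05, and it failed the adjustment (limma, Benjamini-Hochberg adjusted p = 0.12). It passed without empty library 24 (limma, adjusted p = 0.0288) and in DESeq2 on 23 libraries (adjusted p = 0.00986). The cellulose minus empty difference of this gene was -0.44 on the log2 scale, with a 95% interval of -0.96 to 0.07, wider and further from 0 than in the other 3 named genes.

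LABE_00049399-RA came next among the lower genes. Its lowest, median and highest normalised counts were 1814, 1856 and 2139 in protein intestines, 1487, 2197 and 2782 in lipid intestines, 2185, 2715 and 3406 in cellulose intestines, and 2442, 2641 and 3264 in empty intestines. The protein libraries all lay below the cellulose and empty ones, whereas the lipid libraries ran into the range of both. The log2 difference was -0.40 ± 0.09 (SE; limma, Benjamini-Hochberg adjusted p = 0.17), and the gene passed in DESeq2 on 23 libraries (adjusted p = 0.0329) but in no limma fit that left out 1 library. Protein and lipid differed from the no-nutrient mean by -0.50 and -0.30, and the protein minus lipid difference of -0.20 had a 95% interval of -0.46 to 0.06.

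**Figure D1:**
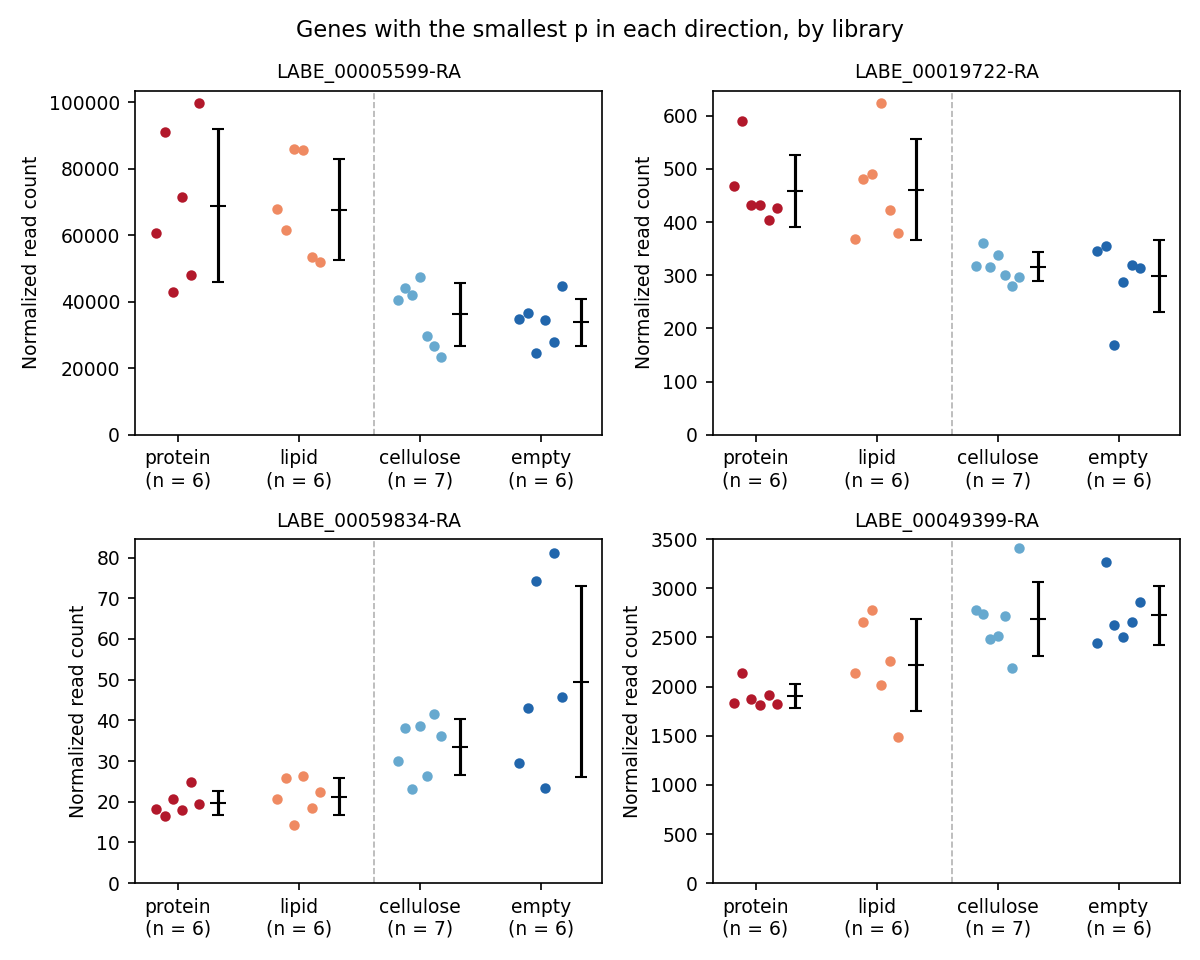
Normalised read counts of the 4 named genes in each library, by group (protein, lipid, cellulose, empty), with the vertical axis in normalised reads starting at 0 and bars at the mean ± SD. In LABE_00019722-RA all 12 nutrient points lie above all 13 others, and in LABE_00049399-RA the lipid points, between 1487 and 2782, run into the range of the no-nutrient points.

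The genes called at an unadjusted p under 0.01 changed by modest amounts. The median log2 difference was 0.55 over the 341 higher genes and -0.44 over the 345 lower genes, against 0.00 over all genes tested, and the extremes were 2.66 and -2.84. A log2 difference beyond 1 in size was reached by 65 of the higher and 23 of the lower genes. Among all 19033 genes tested, called or not, 313 (1.64%) reached it. The smallest difference called was 0.19. Higher and lower genes among the 686 called were not spread alike over abundance. The direction of all genes tested was not counted by abundance, so whether this was particular to called genes was not tested. When the genes were ranked by mean normalised count and cut into 4 equal bins, in the lowest bin (up to 39.6) 77 were higher and 39 lower, and in the highest bin (from 514.8) 82 were higher and 144 lower. The share called was 2.44% in the lowest bin and 4.75% in the highest, and the median standard error of the log2 difference was 0.32 in the lowest bin and 0.10 in the highest, so that a called gene had to move further at low counts (median size of the log2 difference 0.95, against 0.36). Mean counts of this kind grow with gene length as well as with RNA level. Of the 686 genes, 30 were at 0 in at least 1 library (4.37%), compared with 8.13% of all genes tested.

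The pooled result was set beside contrasts within each side, which share the same fit. Between protein and lipid 85 genes had an unadjusted p under 0.01 (0.447%), and between cellulose and empty 175 genes did (0.919%). An unadjusted p under 0.05 was reached by 11.9% of genes for nutrient versus no nutrient, 2.47% for protein versus lipid and 5.18% for cellulose versus empty. With all 25 libraries the largest share of small p values was thus in the nutrient contrast, and protein versus lipid had fewer than a flat distribution would. The cellulose versus empty share depended on single libraries. Without empty library 15 it had 315 genes under 0.01 and 7.33% of genes under 0.05, and without empty library 26 it had 293 genes and 7.22%. With all 25 libraries, no gene passed an adjusted p of 0.05 (limma, Benjamini-Hochberg) between protein and lipid or between cellulose and empty. edgeR also passed none in either, while DESeq2 passed 3 between protein and lipid and 7 between cellulose and empty. In limma, 1 gene passed between protein and lipid without lipid library 28, and 1 between cellulose and empty without cellulose library 13. The contrasts were not equally precise. The median standard error of the log2 difference was 0.16 for nutrient versus no nutrient, 0.23 for protein versus lipid and 0.22 for cellulose versus empty.

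**Figure D2:**
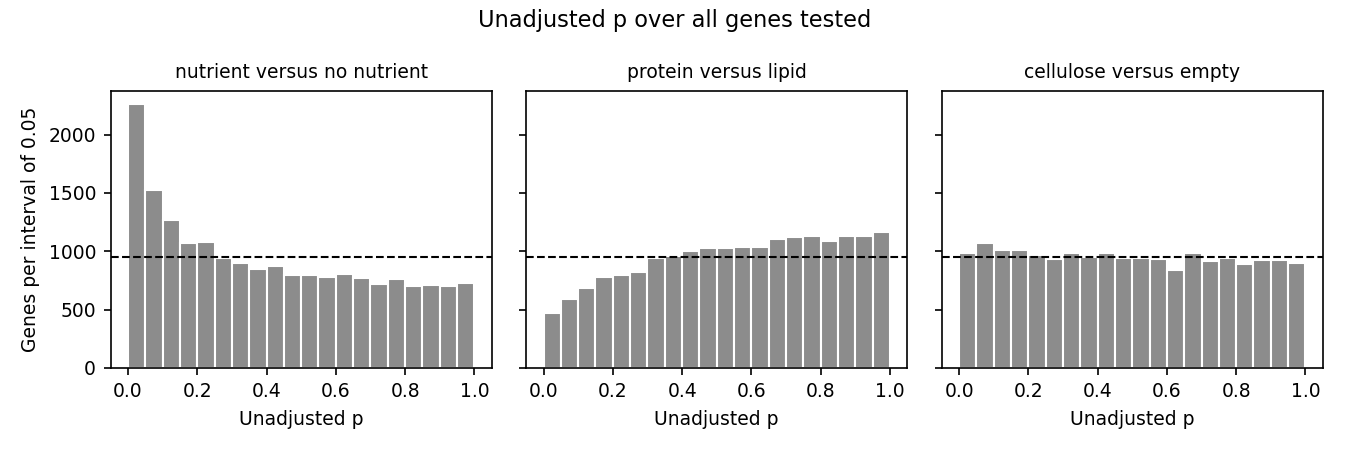
Number of genes, of the 19033 tested, in each twentieth of the unadjusted p range, for nutrient versus no nutrient, protein versus lipid and cellulose versus empty. A dashed line marks the height of a flat distribution. The lowest bin holds 11.9% of genes for nutrient versus no nutrient, 2.47% for protein versus lipid and 5.18% for cellulose versus empty.

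Each nutrient was then set on its own against the pooled cellulose and empty libraries. Protein differed from no nutrient in 655 genes at an unadjusted p under 0.01 (3.44%), 281 higher and 374 lower, and lipid in 194 (1.02%), 95 higher and 99 lower. Neither had a gene past an adjusted p of 0.05 in limma with all 25 libraries (2204 and 994 genes at an unadjusted p under 0.05) or in edgeR on 23 libraries. DESeq2 passed 201 genes for protein and 0 for lipid. In limma, protein passed 17 genes without protein library 32, 5 without empty library 15 and 1 without cellulose library 13 or 17. Lipid passed 1 without lipid library 28. These contrasts share their 13 no-nutrient libraries. With all libraries in limma, the count for protein alone at an unadjusted p under 0.01 was nearly that of both nutrients pooled. That likeness depended on the libraries. On 23 libraries protein alone had 690 such genes and the pooled contrast 485 in limma. The counts were 780 and 536 in edgeR, and 1008 and 718 in DESeq2. In limma they were 717 and 494 without lipid library 21, but 474 and 608 without protein library 33. Of the 686 genes of the pooled contrast, 507 (73.9%) lay further from the no-nutrient mean with protein than with lipid, compared with 59.1% of all genes tested. The median size of the log2 difference over the 686 genes was 0.55 for protein and 0.42 for lipid, against 0.18 and 0.14 over all genes. These genes were called on the mean of the protein and lipid differences, so larger medians than over all genes follow from that choice. The share further with protein was read from the same values. The share further with protein was between 63.5% and 82.2% when 1 library at a time was left out. The difference between the nutrients was itself called at an unadjusted p under 0.01 in 10 of the 686 genes (1.46%, beside 0.447% of all genes), so for most genes a larger protein response was not shown gene by gene. That count was 29 of 863 genes without protein library 32, and 6 without lipid library 14 or lipid library 18. Both contrasts used the same variance estimate of each gene, so a gene with a small estimate was more readily called in both.

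**Figure D3:**
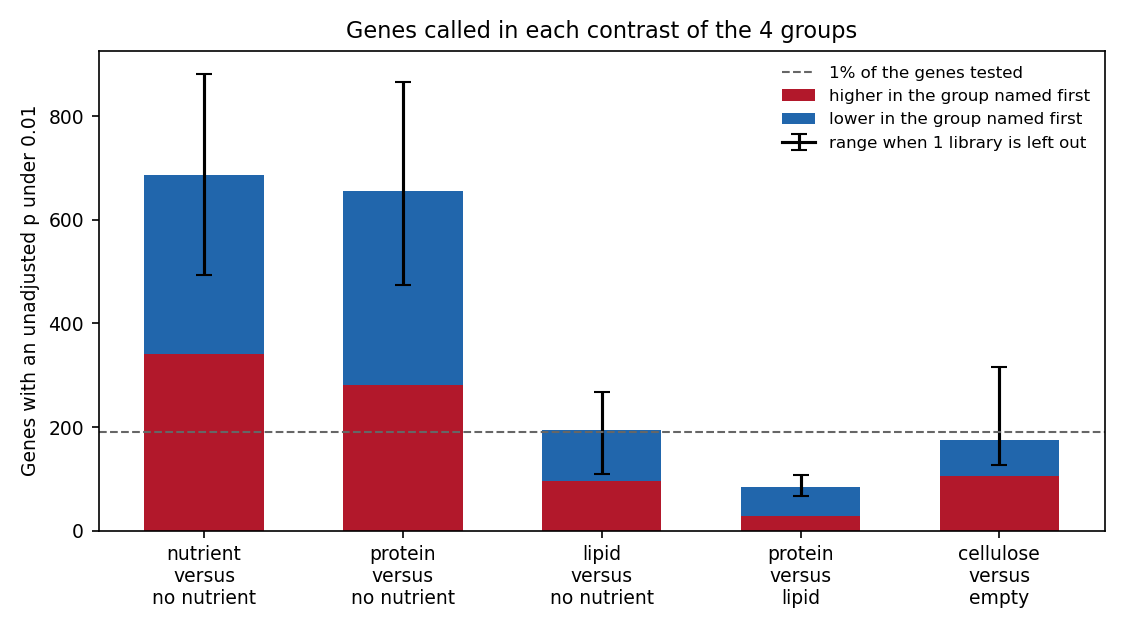
Number of genes higher and lower at an unadjusted p under 0.01 in each contrast of the fit over 25 libraries, with a dashed line at 1% of the genes tested. Nutrient versus no nutrient (686 genes) and protein versus no nutrient (655) stand well above the line, lipid versus no nutrient (194) lies at it, and cellulose versus empty (175) and protein versus lipid (85) lie below it.

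Whether protein and lipid moved genes the same way was read from pairs of comparisons that share no library, each fitted on its 2 groups alone. Protein versus cellulose had 710 genes at an unadjusted p under 0.01 (3.73%) and lipid versus empty 103 (0.541%). The log2 differences had the same sign in 11749 of 19033 genes (61.7%; Pearson's r across genes 0.19, where genes are not independent replicates). Of the genes called for protein versus cellulose, 80.7% had the same sign for lipid versus empty, and in the opposite reading 83.5% did. These shares were 66.2% and 69.6% without lipid library 21, and 62.5% and 68.2% on the 23 libraries that leave out lipid 21 and empty 19. The other pairing gave similar shares. Protein versus empty had 306 such genes (1.61%) and lipid versus cellulose 289 (1.52%), with the same sign in 11276 genes (59.2%; r across genes 0.18) and in 74.5% and 74.0% of the called genes. The shares of called genes were 61.7% and 69.9% without empty library 26, and 68.6% and 64.1% without lipid library 21. Protein versus lipid was also paired with cellulose versus empty, where neither comparison sets a nutrient against none. The sign was the same in 51.7% of genes, and in 60.2% of 93 and 59.7% of 149 called genes. On 23 libraries these shares were 45.4%, 54.8% and 35.3%. The order of the groups in these comparisons is arbitrary, and reversing either one turns a same sign into an opposite sign. The shares of this pair are therefore no background level for the nutrient pairings.

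Few individual genes were called for both nutrients. With all libraries, their shares lay above those over all genes tested in the first pairing and near them in the second. In the first pairing 10 genes were called in both comparisons, 1.41% of the 710 and 9.71% of the 103. Over all genes, the lipid comparison of that pairing called 0.541% and the protein comparison 3.73%. In the second pairing 7 genes were called in both, 2.29% of the 306 and 2.42% of the 289. The shares over all genes were closer there, 1.52% and 1.61%. Whether the overlaps exceeded chance was not tested. The 10 and the 7 had the same sign with all libraries in the fit, but not in every fit that left out 1 library. In the first pairing the same sign held in 7 of 9 without lipid library 28 and 7 of 8 without lipid library 18. It held in 5 of 6 without lipid library 21, 6 of 7 without empty library 30 and 7 of 8 on the 23 libraries. In the second pairing it held in 8 of 10 without cellulose library 13 or empty library 12, and in 8 of 9 without lipid library 28. It was also incomplete there without protein library 10 or 22, lipid library 18, cellulose library 25 or empty library 26. The number called in both also moved. In the first pairing it was 6 without protein library 11, lipid library 21 or cellulose library 27, and 15 without protein library 20 or 32. In the second it was 5 without protein library 11, lipid library 21 or 29, cellulose library 25 or empty library 15. It rose there to 20 without protein library 32, 19 without empty library 24 and 11 without protein library 20. The share of genes with the same sign in the first pairing was 55.5% without lipid library 21 and 54.0% on the 23 libraries that leave out lipid 21 and empty 19, where r across genes was 0.06. In the second pairing the share was 57.7% without lipid library 21, 56.3% without empty library 26 and 58.4% on the 23 libraries.

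**Figure D4:**
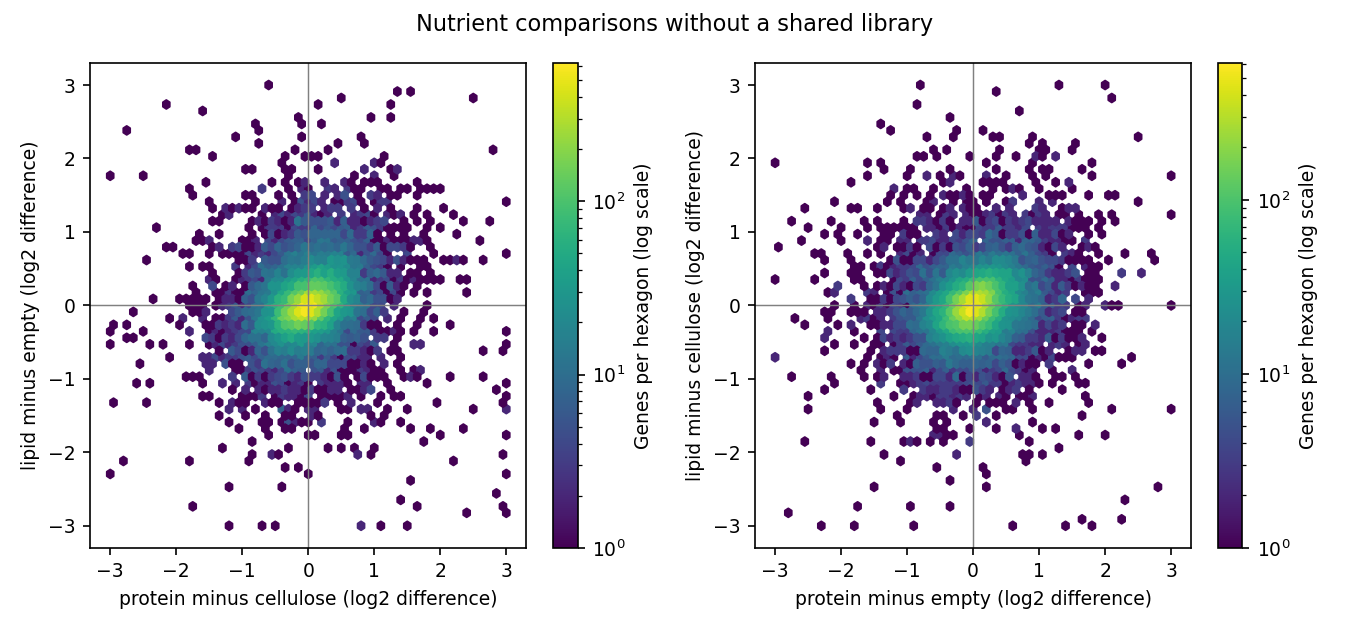
Log2 differences of the 19033 genes in pairs of comparisons without a shared library, protein versus cellulose against lipid versus empty and protein versus empty against lipid versus cellulose, with values past 3 in size drawn at the edge. The clouds lean weakly along the diagonal, with the same sign in 61.7% and 59.2% of genes.

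Single libraries were read against the pooled contrast by calling genes from the other 24 libraries and counting, for the library left out, how many of those genes lay on its own side of the midpoint between the sides. The share was between 28.2% and 82.6% with a median of 58.6%, and it was over 50% in 19 of 25 libraries. Protein libraries had a median of 70.9% with 5 of 6 over 50%, lipid libraries 50.7% with 3 of 6, cellulose libraries 58.6% with 7 of 7, and empty libraries 58.8% with 4 of 6. The libraries below 50% were protein 32 (32.3%), lipid 14 (30.6%), lipid 28 (42.3%), lipid 9 (46.6%), empty 12 (42.4%) and empty 24 (28.2%). Thus 3 of the 6 lipid libraries lay on the no-nutrient side at most of the genes called without them. For lipid library 9 this held only among the higher genes, with 38.1% of the higher and 56.9% of the lower genes on its own side. Whether any share differed from 50% was not tested, and the genes are not independent replicates.

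**Figure D5:**
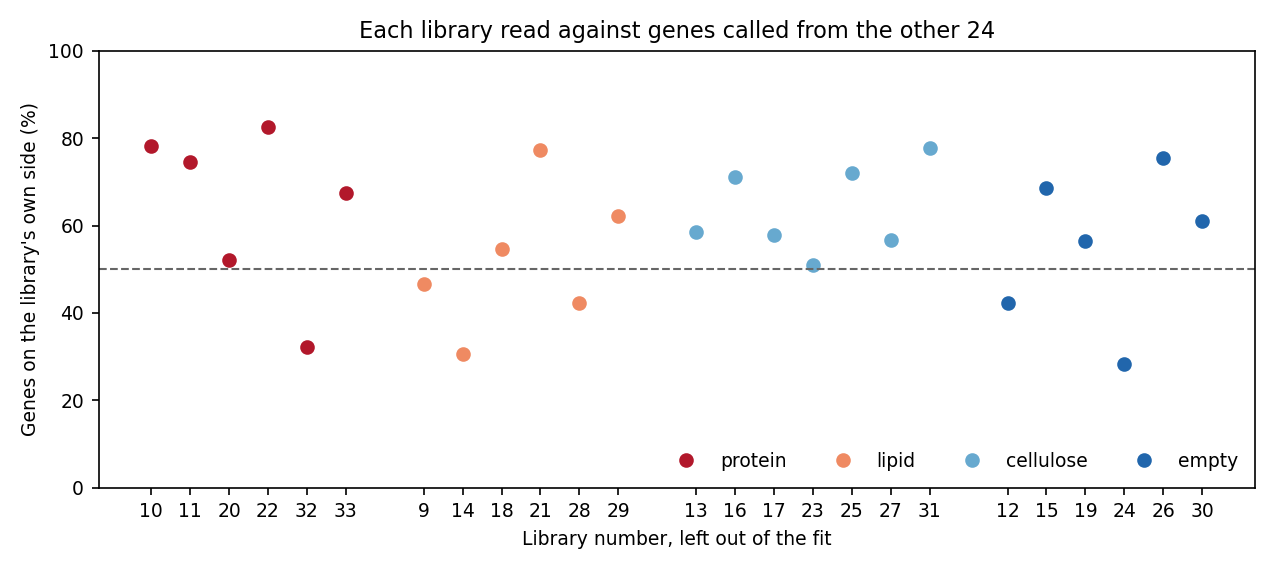
Percentage of genes, called without the library shown, at which that library lay on its own side (nutrient or no nutrient), 1 point for each of 25 libraries by group, with a line at 50%. All 7 cellulose points lie above the line and 6 points lie below it, 1 of protein, 3 of lipid and 2 of empty.

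Single libraries also moved the counts. The number of genes at an unadjusted p under 0.01 between nutrient and no nutrient was highest without empty library 24 (882) and lowest without lipid library 21 (494), and it was 610 without empty libraries 30 and 19 and cellulose library 27. Without protein library 32, 8 genes passed an adjusted p of 0.05 (limma, Benjamini-Hochberg), and in 12 of the 25 fits that left out 1 library none did.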

How the data were processed

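Total RNA of the anterior bulbus was made into stranded mRNA libraries and sequenced on a NextSeq. Per the labels and the study's methods, the authors trimmed reads with Trim Galore 0.4.2, aligned them with HISAT2, counted them per gene with featureCounts and divided the counts by DESeq2 size factors. The deposited values are thus a normalized signal, in reads divided by a size factor, 1 column per library. The study's methods name a ballan wrasse assembly with the BallGen_V1 annotation of Ensembl. The study prints its genes with identifiers that begin with ENSLBEG, whereas those of the deposited values begin with LABE. The genes tested here therefore cannot be taken as those Ensembl genes. The values of a library are whole multiples of 1 step (100% whole, within 0.1), and whole reads were recovered in 23 libraries. Empty 19 and lipid 21, with steps of 0.991 and 1.009, were left out of the count tests by a rule on steps close to 1. Their values were whole multiples of the step as well.

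Genes over a normalized count of 10 in 5 or more libraries were fitted as log2(value + 1) in limma 3.58.1 (R 4.3.3; trend and robust moderation) with 1 mean for each of 4 groups. The pseudocount understates the change of low genes. The contrast was the mean of protein and lipid minus the mean of cellulose and empty. Genes were called at an unadjusted p under 0.01 and at a Benjamini-Hochberg adjusted p under 0.05 over all genes. Comparisons without a shared library were fitted on their 2 groups alone. The reading of each library against genes called without it was added after seeing the data. Library measures were compared by two-sided permutation tests with 100000 resamples. Counts were also tested with edgeR 4.0.16 (quasi-likelihood) and DESeq2 1.42.0, and surrogate variables came from sva 3.50.0. Other filters, pseudocounts, scalings, weights and covariates were tried, and each library was left out in turn. The fit was tested on simulated data.

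The lowest chi-square between 2 libraries of a group, over 56 pairs with recovered reads, was 26.2 per degree of freedom, so none was a copy of another. The count noise of a gene falls with depth (10160088 to 31586869 reads). The limma p-values set differences of group means against the spread between libraries within groups, with each gene's variance moderated over all genes. The comparison, the lists and the rule for named genes (the 2 identifiers with the smallest p in each direction) were chosen with earlier results of these data known. Gene lists fixed by symbol were not used because no identifier was paired with a symbol.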

Additional observations from a re-analysis of the deposited data

Results flagged for a closer look

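In 6 of 32 sets of values examined (reads, genes at 0, the share of the 100 highest genes, the share of genes on a library's own side and the 4 named genes, in each of 4 groups), 1 library was widely separated from its group by the gap to its neighbour, which chance gives in about 1 in 20. Protein library 33 had 31586869 reads, and the next had 16218891. Protein library 20 had 308 genes at 0, the next 149, and cellulose library 27 had 659, the next 274. Protein library 11 had the highest normalised count of its group for LABE_00019722-RA, 590.8 with the next at 468.7, and for LABE_00049399-RA, 2138.7 with the next at 1914.0. Empty library 19 had the lowest normalised count for LABE_00019722-RA, 169.5 with the next at 288.0. The log2 difference of LABE_00019722-RA was 0.59 with all libraries, 0.51 without empty library 19 and 0.55 without protein library 11. That of LABE_00049399-RA was -0.40 with all libraries and -0.42 without protein library 11.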

How the results depend on the processing

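The 4 genes past an adjusted p of 0.05 in limma (Benjamini-Hochberg) became 1 with a pseudocount of 0.1, with upper quartile scaling and on the 23 libraries with recovered reads, 2 when every library had equal weight, and 0 with non-robust moderation, with genes at 0 as a covariate, with 1 surrogate variable, and without the 3 libraries with the most genes at 0 (an alternative chosen after seeing the data). edgeR passed 1 and DESeq2 45. Leaving out 1 library gave 0 to 8. The count at an unadjusted p under 0.01 (686) was between 485 and 718 under all other settings, lowest on the 23 libraries, and between 494 and 882 without 1 library. It shared 377 genes with the 686 on 23 libraries and 300 with 1 surrogate variable. TMM scaling gave 367 higher and 312 lower.

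For protein versus no nutrient DESeq2 called 1008 genes, and leaving out 1 library gave 474 to 865. For lipid versus no nutrient limma on 23 libraries called 127, and leaving out 1 library gave 109 to 268. Only 13558 genes had a mean of at least 50, against 19033 in the main fit, and protein versus lipid had 54 genes among them. Protein versus lipid had 130 in edgeR and 182 in DESeq2, with 66 to 108 without 1 library. Cellulose versus empty had 102 among the same 13558 genes and 126 to 315 without 1 library, 315 without empty 15 and 293 without empty 26. The same-sign share of protein versus cellulose with lipid versus empty was 63.2% at that mean and 54.0% on 23 libraries (55.5% to 64.8% without 1 library), and that of protein versus empty with lipid versus cellulose 60.7% and 58.4% (56.3% to 61.4%). The difference in reads, nutrient minus none, was 1442000 and between -147800 (without protein 33) and 1941000 without 1 library. The causes of these shifts were not tested. No paired analysis was possible because each library carries its own number. Reads of lipid 21 and empty 19 were not used because of a rule on their step, although their values were whole multiples of it.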
